A study of Mus musculus with 18 samples.

Results

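The genes described here are Olig1 and Olig2, which lie in the duplicated segment of the Dp16 mouse, and 6 regulators or surface markers of the oligodendrocyte lineage that remain at 2 copies: Sox10, Sox8, Nkx2-2, Myrf, Pdgfra and Cspg4. They were taken by symbol from the deposited tables, and all 8 of 8 were found among 55385 genes. Olig1 and Olig2 were selected on their rise of less than 1.5-fold over wild type. Their folds and intervals against wild type are therefore a description, with no test against an equal level or against 1.5-fold. The rule used no measured value of the other 6 genes.

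Poly-A RNA was sequenced from the brain cortex of adult mice, 17.1 to 18.0 weeks old, in 3 genotypes of 6 libraries each, with 3 males and 3 females per genotype. WT was wild-type C57BL/6J. Dp16 carries an extra copy of a chromosome 16 segment orthologous to part of human chromosome 21, and is a mouse model of trisomy 21. Dp16_2xIFNRs carries the same duplication with the interferon receptor cluster (Ifnar1, Ifnar2, Ifngr2 and Il10rb) returned to 2 copies. Both duplication genotypes therefore hold 3 copies of Olig1 and Olig2 per cell, and the labels name no treatment. The labels name no litter or culture, so a p-value measures the spread between these samples. The sample descriptions hold a number of unstated meaning, and 5 of 12 such numbers recur between genotypes, over 11 of 18 libraries and with 1 sex per number. The number 930 is that of sample 1 in all 3 genotypes. Total counts per library were 47554526 to 52006799 in WT, 46346019 to 67281449 in Dp16 and 47912340 to 61150849 in Dp16_2xIFNRs.

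Oligodendrocytes form the myelin of the central nervous system, and arise from precursor cells that persist in the adult cortex. Olig2 is a basic helix-loop-helix factor needed to specify these precursors, and its neighbour Olig1 acts in their maturation. Precursors carry the receptor Pdgfra and the proteoglycan Cspg4 (NG2), whereas Sox10, Nkx2-2 and the membrane-bound factor Myrf drive differentiation and myelin gene expression. Sox8 belongs with Sox10 and Sox9 to the SoxE group of high-mobility-group factors.

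By GENCODE M21 on build GRCm38, Olig2 spans chr16:91225457-91228677 and Olig1 spans chr16:91269772-91271933, both on the plus strand and 41.1 kb apart. The start of Ifnar2, the nearest gene of the receptor cluster, lies 100.8 kb beyond the end of Olig1. The other members lie on chromosomes 15 (Sox10), 17 (Sox8), 2 (Nkx2-2), 19 (Myrf), 5 (Pdgfra) and 9 (Cspg4).

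Promoter sequences from RefSeq (GRCm38.p6) were matched for 5 of 8 members, Olig2, Sox8, Nkx2-2, Pdgfra and Cspg4. Each was searched on both strands, over the 250 bases before the RefSeq start, for the E-box CANNTG bound by basic helix-loop-helix factors and for ACAANG, a core bound by SOX factors. A CANNTG match was present in 66.2% and an ACAANG match in 36.3% of 32851 such windows. Nkx2-2 had 3 CANNTG matches, Pdgfra and Sox8 had 1 each, and Olig2 and Cspg4 had 0. ACAANG matched 1 time in Olig2 and in Pdgfra and 0 times in the other 3, and no match of one motif overlapped the other. The 4 windows below are shown because they belong to the duplicated Olig2 and to 3 of the genes that varied together across libraries. Each is cut at the first annotated exon, runs 5′ to 3′ on the strand of its gene, and has CANNTG matches in capitals. They lie at chr16:91225300-91225456 (Olig2, plus strand), chr2:147186456-147186652 (Nkx2-2, minus strand), chr5:75152001-75152250 (Pdgfra, plus strand) and chr9:56864854-56865032 (Cspg4, plus strand).
Olig2: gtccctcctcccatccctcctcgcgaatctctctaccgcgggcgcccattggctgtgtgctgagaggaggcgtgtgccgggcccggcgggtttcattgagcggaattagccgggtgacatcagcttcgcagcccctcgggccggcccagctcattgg
Nkx2-2: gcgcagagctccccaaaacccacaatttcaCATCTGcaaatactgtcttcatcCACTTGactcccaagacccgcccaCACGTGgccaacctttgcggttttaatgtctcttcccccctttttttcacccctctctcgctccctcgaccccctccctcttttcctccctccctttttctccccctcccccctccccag
Pdgfra: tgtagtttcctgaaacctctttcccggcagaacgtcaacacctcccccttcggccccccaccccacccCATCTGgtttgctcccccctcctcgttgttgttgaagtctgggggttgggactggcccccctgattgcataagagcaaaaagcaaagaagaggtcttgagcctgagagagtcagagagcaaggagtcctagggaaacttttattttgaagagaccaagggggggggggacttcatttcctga
Cspg4: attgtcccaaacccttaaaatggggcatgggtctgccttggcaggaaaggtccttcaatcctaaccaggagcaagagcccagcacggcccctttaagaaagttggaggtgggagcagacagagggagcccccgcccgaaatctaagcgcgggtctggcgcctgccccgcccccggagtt

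The tissue was checked against marker genes. Mbp of myelin was at 320 to 427 RPKM (reads scaled by gene length and library total, which allows levels of different genes to be compared) and Snap25 of neurons at 1084 to 1391 RPKM in every library. The Schwann cell gene Pmp2 had a median of 0 RPKM and at most 0.0137 RPKM in any library. The 9 listed Schwann genes together were at 13.1 to 22.8 RPKM in WT, 11.4 to 18.6 in Dp16 and 13.5 to 20.3 in Dp16_2xIFNRs. Of the 9 genes, 6 had counts in every WT library, 5 in every Dp16 library and 6 in every Dp16_2xIFNRs library. Pdgfra is also made by meningeal fibroblasts, and Cspg4 by pericytes. The pericyte gene Rgs5 was at 25.3 to 36.0 RPKM and the fibroblast gene Dcn at 5.24 to 8.83 RPKM. Ttr of the choroid plexus ranged from 1.53 to 299 RPKM, highest in Dp16 sample 3. Most of the summed fibroblast markers came from 1 gene, at a mean of 600 RPKM over all libraries. WT sample 6 was the lowest WT library for the summed markers of precursors, astrocytes, microglia, endothelium, pericytes and fibroblasts. It was also the lowest WT library for Olig1, Sox10, Nkx2-2 and Pdgfra. In bulk tissue, fewer cells of a type and less RNA per cell cannot be told apart.

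Ranked per length in WT, Olig1 was at 63.0 ± 6.37 RPKM (SD, n = 6), Sox10 at 19.6 ± 2.51 and Sox8 at 19.0 ± 2.97. Olig2 followed at 14.2 ± 1.05, Myrf at 13.2 ± 1.01, Pdgfra at 7.86 ± 1.24, Cspg4 at 3.60 ± 0.576 and Nkx2-2 at 2.66 ± 0.556 RPKM. Olig1 stood clear of all others. Between WT libraries Sox8 overlapped Sox10, Olig2 and Myrf, Olig2 overlapped Myrf, and Cspg4 overlapped Nkx2-2. In Dp16 the level of Olig2 was 18.0 ± 2.07 RPKM, beside 18.4 ± 2.54 for Sox10 and 17.7 ± 1.25 for Sox8. Within the 2 families, Sox9 was at 12.3 ± 2.83, 10.3 ± 1.98 and 11.1 ± 0.984 RPKM in WT, Dp16 and Dp16_2xIFNRs. Olig3 had at most 10 counts in any library.

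**Figure D1:**
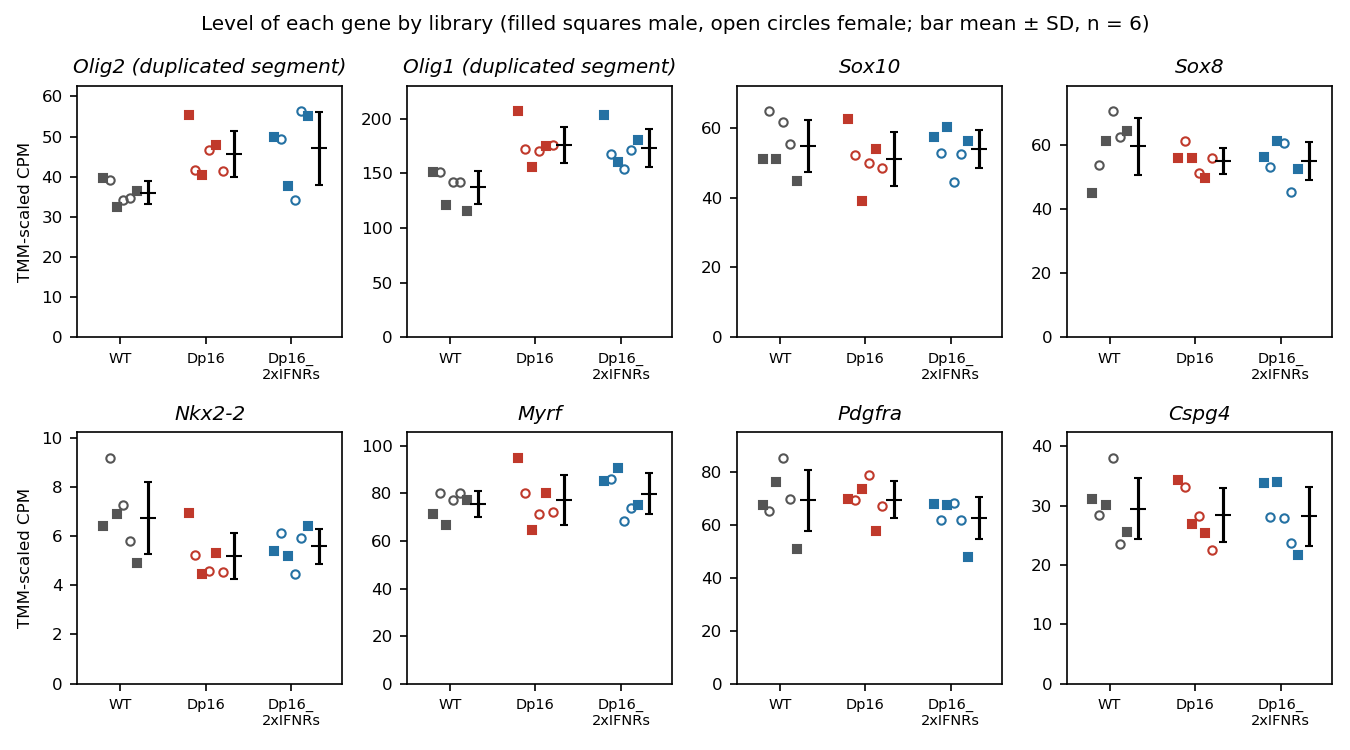
Level of each of the 8 genes in every library, in CPM (counts scaled to library size by the trimmed mean of M-values), by genotype. The 6 Dp16 and 6 Dp16_2xIFNRs libraries lie above all WT libraries for Olig1. The 3 groups overlap for each of the 6 genes at 2 copies. The share of other genes that separate as Olig1 does is not given here.

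Olig1 was higher in all 12 libraries with the duplication than in any WT library. In WT it ran from 115 to 151 CPM (median 142). In Dp16 it ran from 156 to 207 CPM (median 174), and in Dp16_2xIFNRs from 154 to 203 CPM (median 169). Neither duplication group overlapped WT, and the duplication groups overlapped each other. The share of segment genes, or of all tested genes, without such overlap is not given here. The separation is therefore not read as particular to Olig1. The means were 137 ± 15.3 CPM in WT, 176 ± 16.8 in Dp16 and 173 ± 17.5 in Dp16_2xIFNRs (SD, n = 6). The fitted fold over WT was 1.28 in Dp16 (log2 0.36, SE 0.0801, 95% interval of the fold 1.14 to 1.44). In Dp16_2xIFNRs it was 1.26 (log2 0.33, SE 0.0801, interval 1.12 to 1.42). These 2 comparisons share the WT libraries. The intervals belong to folds that were used to choose the gene, so they serve as no test. The library numbered 930 was the highest for Olig1 in each of the 3 genotypes, and without these 3 libraries the log2 fold was 0.35 in Dp16 and 0.33 in Dp16_2xIFNRs.

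Olig2 was higher in Dp16 without overlap, and more spread in Dp16_2xIFNRs. In WT it ran from 32.4 to 39.6 CPM (median 35.6). The Dp16 libraries held 40.3 to 55.5 CPM (median 44.2), and those of Dp16_2xIFNRs 34.1 to 56.4 CPM (median 49.6). Every Dp16 library was above every WT library, but 4 of 6 Dp16_2xIFNRs libraries were above all WT libraries. As for Olig1, the share of other genes that separate in this way is not given here. The means were 36.1 ± 2.86 CPM in WT, 45.6 ± 5.76 in Dp16 and 47.1 ± 9.14 in Dp16_2xIFNRs (SD, n = 6). The fold over WT was 1.26 in Dp16 (log2 0.34, SE 0.112, 95% interval of the fold 1.07 to 1.49). In Dp16_2xIFNRs it was 1.31 (log2 0.38, SE 0.112, interval 1.11 to 1.54). The coefficient of variation of Olig2 was 7.92% in WT, 12.6% in Dp16 and 19.4% in Dp16_2xIFNRs.

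**Figure D2:**
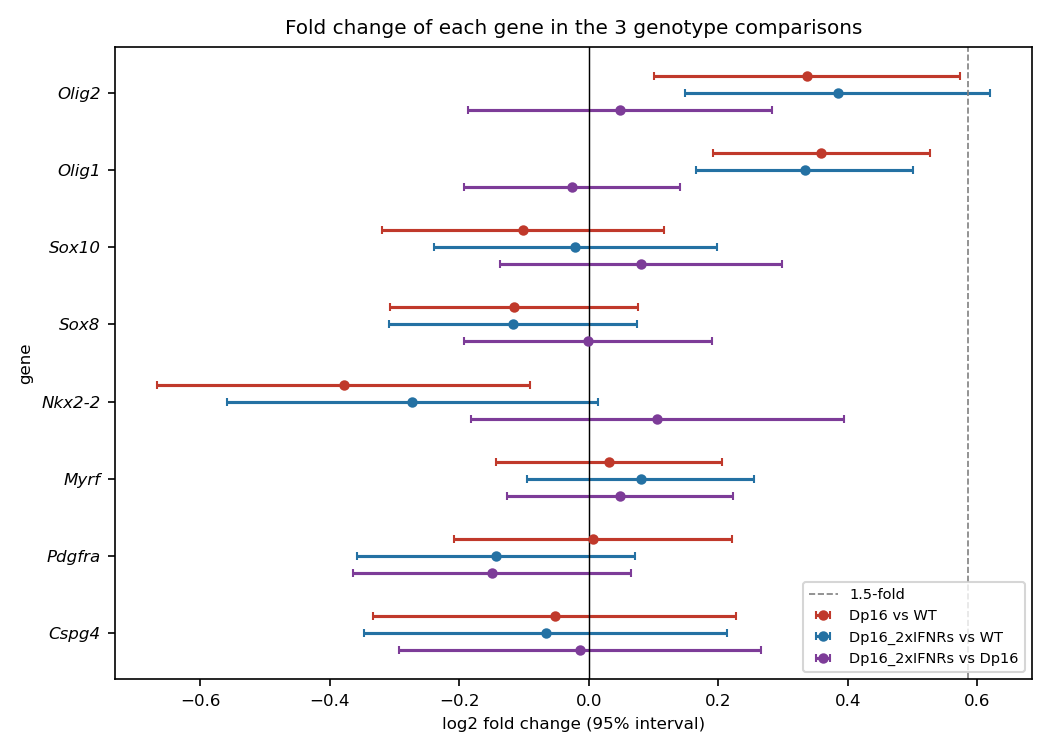
Fitted log2 fold change of each gene with its 95% interval in the 3 genotype comparisons, with a dashed line at 1.5-fold. Olig1 and Olig2 lie between 0.33 and 0.38 against WT and at -0.03 and 0.05 between the duplication genotypes. Their intervals against WT are descriptive, since these folds were used to choose the 2 genes.

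Both genes sat in the lower part of the segment's folds. Leaving out the receptor genes, 111 genes of the segment were tested, and their median fold over WT was 1.46 in Dp16 and 1.47 in Dp16_2xIFNRs. Counted from the lowest fold, Olig2 ranked 13 and Olig1 ranked 15 in Dp16. In Dp16_2xIFNRs, Olig1 ranked 16 and Olig2 ranked 23. These ranks count A930006K02Rik, which lies among the receptor genes and ranked 1 in Dp16_2xIFNRs. Among the 37 segment genes with a mean of at least 32 CPM, 3 had a lower fold than Olig1 and 1 had a lower fold than Olig2 in Dp16. Those below Olig1 were the kinase gene Hunk (1.12-fold, SE 0.241 on the log2 scale), Olig2 itself and the myo-inositol transporter gene Slc5a3 (1.28-fold, SE 0.113); Hunk and Slc5a3 were named after their values were seen. The tested genes nearest to 1.5-fold in Dp16 were Hmgn1 just below (1.497) and Smim11 just above (1.5001).

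**Figure D3:**
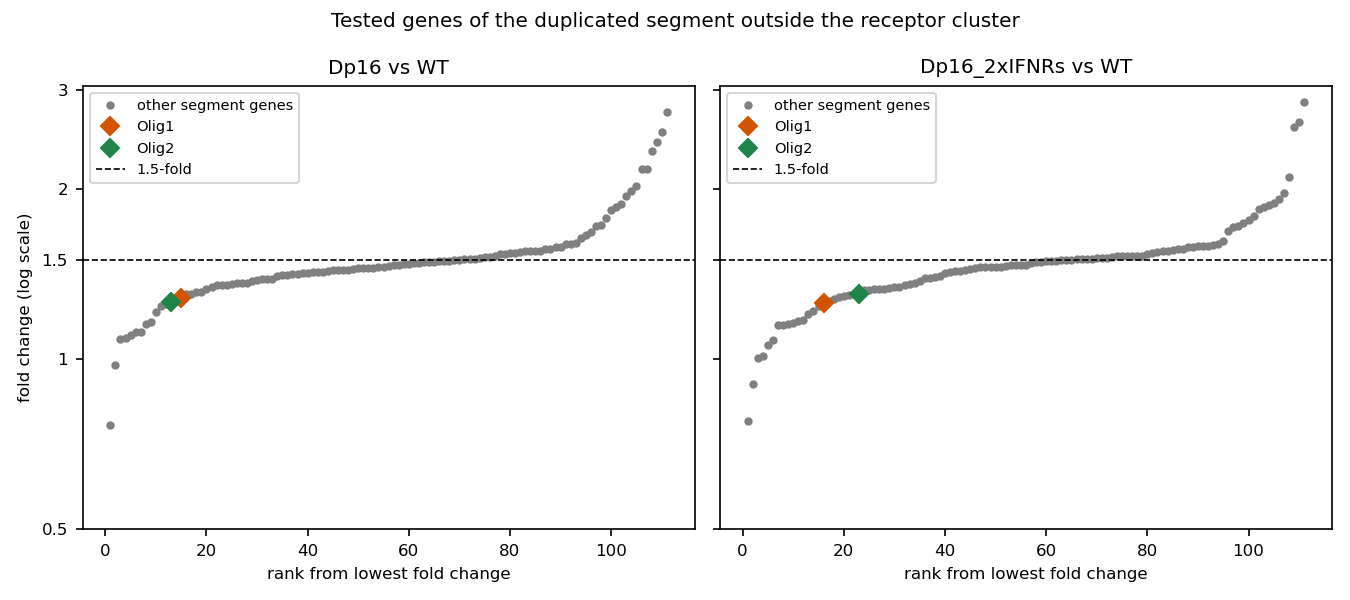
Fold change over WT (log axis) of the 111 segment genes tested, receptor genes left out, ranked from the lowest, in Dp16 and in Dp16_2xIFNRs. Olig1 and Olig2 sit at ranks 13 to 23, left of the plateau near 1.5-fold.

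Of the neighbouring genes, Paxbp1, 180.9 kb before the pair, had a fold of 1.44 in Dp16 (log2 0.53, SE 0.201) and 1.49 in Dp16_2xIFNRs (log2 0.58, SE 0.201). The uncharacterised 4932438H23Rik and Gm49614, also before the pair, were near 1 CPM or below, with folds of 1.57 and 1.24 in Dp16 and of 1.17 and 1.00 in Dp16_2xIFNRs. Beyond the pair, Ifnar2 had folds of 1.48 in Dp16 and 0.995 in Dp16_2xIFNRs, and Il10rb had 1.41 and 0.967. A930006K02Rik, which lies among the receptor genes and was below 1 CPM, had folds of 1.16 and 0.778. Ifnar1 had folds of 1.46 and 1.03, and Ifngr2 of 1.55 and 1.05. In Dp16_2xIFNRs the 4 receptor genes, whose starts lie within 275.1 kb of Olig1, thus had folds of 0.967 to 1.05, beside 1.26 and 1.31 for Olig1 and Olig2.

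Dp16_2xIFNRs and Dp16 differ by the copy number of the receptor cluster, and this comparison was not used to choose the genes. None of the 8 members was called, that is, 0 of 8 had an adjusted p below 0.05 by the quasi-likelihood test of edgeR with Benjamini-Hochberg adjustment over 18717 genes. At an unadjusted p under 0.05 the count was also 0 of 8, beside 410 of 18717 genes, and DESeq2 and limma-voom called 0 members. Over all genes 0.0214% were called, which are the 4 receptor genes. The log2 difference (Dp16_2xIFNRs minus Dp16) was -0.03 for Olig1 (95% interval -0.19 to 0.14). For Olig2 it was 0.05 (-0.19 to 0.28). The intervals of the 6 genes at 2 copies all included 0, and the farthest value was -0.15 for Pdgfra (-0.36 to 0.07). A miss of the threshold does not show equal levels: for Olig1 the interval allows folds between 0.875 and 1.10, and for Olig2 between 0.878 and 1.22.

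The 6 genes at 2 copies gave no calls against WT. In Dp16, 0 of 6 were called by edgeR, DESeq2 and limma-voom, beside 0.748% of all genes by edgeR. At an unadjusted edgeR p under 0.05 there was 1 of 6, beside 1655 of 18717 genes. In Dp16_2xIFNRs, 0 of 6 were called by edgeR and by the other tools, beside 1.05% of all genes by edgeR. At an unadjusted edgeR p under 0.05 there were 0 of 6, beside 2158 of 18717 genes. These shares and counts over all genes include the 115 tested genes of the duplicated segment, so they are not those of genes at 2 copies.

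Sox10, which activates Myrf and myelin genes, ran from 44.9 to 64.9 CPM in WT (median 53.4). In Dp16 it ran from 39.1 to 62.7 CPM (median 51.2), and in Dp16_2xIFNRs from 44.5 to 60.4 CPM (median 54.6). The groups overlapped almost fully. The log2 difference from WT was -0.10 in Dp16 (SE 0.104, edgeR adjusted p = 0.876) and -0.02 in Dp16_2xIFNRs (SE 0.104, adjusted p = 0.984).

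Sox8 ran from 45.1 to 70.7 CPM in WT (median 61.9). Levels in Dp16 were 49.8 to 61.5 CPM (median 55.9), and in Dp16_2xIFNRs 45.5 to 61.3 CPM (median 54.8). All 12 duplication libraries lay below the WT median but within the WT range. The log2 difference was -0.12 in both genotypes (edgeR adjusted p = 0.804 in Dp16 and 0.704 in Dp16_2xIFNRs). Sox8 overlaps the antisense lncRNA gene Cerox1, which had 19582 counts over all libraries. The kit keeps strand per the labels' protocols, but the strand setting of the counting was not given in the sources used here.

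Nkx2-2, a homeodomain factor of differentiating precursors, was the member at 2 copies with the lowest folds. In WT it ran from 4.91 to 9.20 CPM (median 6.65). In Dp16 it ran from 4.48 to 6.94 CPM (median 4.92), and in Dp16_2xIFNRs from 4.45 to 6.39 CPM (median 5.67). Of the Dp16 libraries, 3 of 6 were below all WT libraries, and the groups still overlapped. The log2 difference from WT was -0.38 in Dp16 (SE 0.138, unadjusted p = 0.0127, edgeR adjusted p = 0.362). In Dp16_2xIFNRs it was -0.27 (SE 0.137, unadjusted p = 0.0610, adjusted p = 0.466). In Dp16 it was -0.13 in males alone and -0.62 in females alone (interaction of sex with Dp16, edgeR unadjusted p = 0.0757). With the description number as a fixed block the difference was -0.16 in Dp16 and -0.11 in Dp16_2xIFNRs. With that number as a random block in limma-voom, Nkx2-2 had -0.36 and -0.25. Its counts were 214 to 473 per library, the lowest of the 8 genes, and antisense genes overlapping it held 635 (Nkx2-2os) and 209 (6430503K07Rik) counts over all libraries.

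Myrf ran from 66.8 to 80.2 CPM in WT (median 77.3). Levels in Dp16 were 64.5 to 95 CPM (median 76.2), and in Dp16_2xIFNRs 68.5 to 90.8 CPM (median 80.2). The duplication groups overlapped WT and reached above it at the top. The log2 difference was 0.03 in Dp16 (SE 0.0836, edgeR adjusted p = 0.967) and 0.08 in Dp16_2xIFNRs (SE 0.0836, adjusted p = 0.815).

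Pdgfra, the receptor for the growth factor that keeps precursors dividing, ran from 51.2 to 85.6 CPM in WT (median 69.0). In Dp16 it ran from 58.0 to 79.1 CPM (median 69.8), and in Dp16_2xIFNRs from 48.1 to 68.3 CPM (median 64.9). All 6 Dp16_2xIFNRs libraries lay below the WT median, with overlap. The log2 difference was 0.01 in Dp16 (SE 0.102, edgeR adjusted p = 0.995) and -0.14 in Dp16_2xIFNRs (SE 0.102, adjusted p = 0.667). Cspg4 ran from 23.5 to 38.1 CPM in WT, 22.6 to 34.3 in Dp16 and 21.7 to 33.9 in Dp16_2xIFNRs. Its groups overlapped, and its log2 differences were -0.05 (adjusted p = 0.966) and -0.07 (adjusted p = 0.929). Summed pericyte markers were 91.5 to 133 RPKM in WT, 107 to 134 in Dp16 and 107 to 135 in Dp16_2xIFNRs. Summed fibroblast markers were 302 to 736, 501 to 805 and 582 to 845 RPKM. These fibroblast sums came mostly from 1 gene, at a mean of 600 RPKM over all libraries. The part of pericytes and fibroblasts in the Pdgfra and Cspg4 levels was not tested.

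Ratios within a library set the duplicated pair against the lineage. The ratio of Olig1 to Sox10 (RPKM) was 2.97 to 3.80 in WT and 4.16 to 5.12 in Dp16, with no overlap. In Dp16_2xIFNRs it was 3.42 to 4.55, with 1 library inside the WT range. The mean ratio was 1.38 times that of WT in Dp16 and 1.28 times in Dp16_2xIFNRs. The ratio of Olig2 to Sox10 averaged 0.733 ± 0.113 in WT, 0.987 ± 0.0876 in Dp16 and 0.960 ± 0.175 in Dp16_2xIFNRs (SD, n = 6). It ran from 0.607 to 0.895 in WT, 0.874 to 1.13 in Dp16 and 0.687 to 1.18 in Dp16_2xIFNRs, with overlap. Set against Pdgfra, the groups also overlapped. Olig1 to Pdgfra was 6.44 to 9.34 in WT, 8.58 to 12.2 in Dp16 and 9.16 to 15.2 in Dp16_2xIFNRs. Olig2 to Pdgfra was 1.38 to 2.48, 1.90 to 2.87 and 1.73 to 3.97. Olig1 to Olig2 averaged 4.46 ± 0.425, 4.54 ± 0.300 and 4.40 ± 0.703. The pair thus kept its own ratio within the spread between libraries. These ratios use the values that chose Olig1 and Olig2 and carry no test. The share of other gene pairs whose ratio separates between genotypes is not given here.

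**Figure D4:**
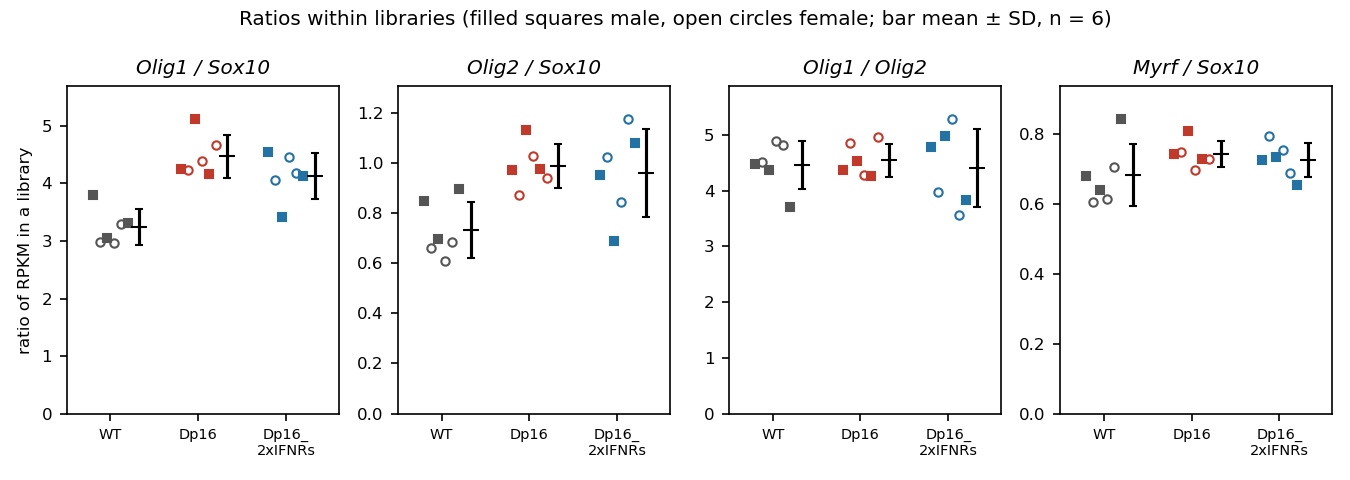
Ratios of RPKM within each library by genotype. Olig1 to Sox10 is 2.97 to 3.80 in WT and 4.16 to 5.12 in Dp16. Olig2 to Sox10, Olig1 to Olig2 and Myrf to Sox10 overlap between all 3 genotypes.

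Sex was tested over all 18 libraries. None of the 8 members was called between females and males by edgeR, beside 0.0641% of all genes. At an unadjusted p under 0.05 there were 0 members, beside 1242 of 18717 genes. For the interaction of sex with Dp16, 0 of 8 members and 0% of all genes were called. There 0 members had an unadjusted p under 0.05, beside 577 of 18717 genes. For the interaction with Dp16_2xIFNRs, 0 of 8 members and 0% of all genes were called. There 1 of 8 members had an unadjusted p under 0.05, beside 1098 of 18717 genes. DESeq2 and limma-voom also called 0 members in these comparisons. The member below 0.05 was Sox10, with an interaction (the Dp16_2xIFNRs minus WT difference in females less that in males) of -0.52 on the log2 scale (SE 0.173, unadjusted p = 0.0079, edgeR adjusted p = 0.826). In WT, Sox10 was 44.9 to 51.3 CPM in the 3 males and 55.5 to 64.9 CPM in the 3 females. In Dp16_2xIFNRs it was 56.3 to 60.4 CPM in males and 44.5 to 53.0 CPM in females. The order of the sexes was opposite in these 2 genotypes, and the difference did not pass the adjusted test. Olig1 in Dp16_2xIFNRs was 0.49 above WT on the log2 scale in males alone and 0.19 in females alone.

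Across the 18 libraries, after genotype and sex means were removed, 4 of 28 pairs of members had a Benjamini-Hochberg adjusted permutation p below 0.05 for Pearson's r, and 21 of 28 were positive. Sox10 was part of 3 of the 4 pairs. Sox10 and Myrf had r = 0.78 (permutation p = 0.00069, adjusted p = 0.0105) and rho = 0.77 (p = 0.00116, adjusted p = 0.0325). Sox10 and Nkx2-2 had r = 0.77 (permutation p = 0.00075, adjusted p = 0.0105) and rho = 0.63 (p = 0.0125, adjusted p = 0.0581). Olig1 and Sox10 had r = 0.73 (permutation p = 0.0019, adjusted p = 0.0177) and rho = 0.63 (p = 0.0119, adjusted p = 0.0581). The precursor genes Pdgfra and Cspg4 had r = 0.71 (permutation p = 0.00286, adjusted p = 0.0200) and rho = 0.66 (p = 0.00748, adjusted p = 0.0581). Without the 2 libraries farthest from the median of the first gene, r was 0.62, 0.73, 0.67 and 0.61. Within WT, Dp16 and Dp16_2xIFNRs the 4 values of r were all positive: 0.43, 0.95 and 0.80 for Sox10 and Myrf, and 0.86, 0.85 and 0.52 for Sox10 and Nkx2-2. They were 0.73, 0.92 and 0.51 for Olig1 and Sox10, and 0.67, 0.30 and 0.81 for Pdgfra and Cspg4. Unlike the main values, those within a genotype come from log2 CPM with the sex means left in. The part of sex in them was not tested. With WT sample 6 and Dp16 sample 3 both left out, 2 of 28 pairs passed, Sox10 with Myrf and Pdgfra with Cspg4. Without the 3 libraries numbered 930, 3 pairs passed. They were Olig1 with Sox10 (r = 0.81, permutation adjusted p = 0.0395), Olig1 with Nkx2-2 (0.75, adjusted p = 0.0478) and Olig2 with Sox8 (-0.78, adjusted p = 0.0395). Pdgfra and Cspg4 did not pass there (r = 0.67), nor did Sox10 with Myrf (0.68) or with Nkx2-2 (0.72). Pdgfra and Cspg4 also missed the threshold on log2 RPKM (r = 0.65), without WT sample 4 (0.64) and without Dp16_2xIFNRs sample 6 (0.63). Olig1 and Sox10 missed it without Dp16 sample 1 (r = 0.65). The permutations treat libraries that share a description number as independent.

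Olig1 and Olig2 themselves had r = 0.62 (permutation p = 0.0130, adjusted p = 0.0577; rho = 0.58, p = 0.0249, adjusted p = 0.0996), which did not pass. The pair passed with genotype alone removed (r = 0.61, permutation adjusted p = 0.0448), without WT sample 6 (0.70, adjusted p = 0.0407) and without Dp16_2xIFNRs sample 5 (0.70, adjusted p = 0.0324). Without the 2 farthest libraries r was 0.58. Within WT, Dp16 and Dp16_2xIFNRs, with sex means left in, r was 0.52, 0.85 and 0.65. Olig2 and Sox8 had the lowest value, r = -0.62 (permutation p = 0.0144, adjusted p = 0.0577; rho = -0.68, p = 0.00508, adjusted p = 0.0581), and also did not pass. It passed with genotype alone removed (r = -0.62, permutation adjusted p = 0.0448), without WT sample 1 (-0.68, adjusted p = 0.0334), without Dp16 sample 1 (-0.69, adjusted p = 0.0451) and, as above, without the libraries numbered 930. Without the 2 farthest libraries it was -0.56, and within the genotypes, with sex means left in, it was -0.76, -0.39 and -0.86. Library-wide variation moved with these genes: the first principal component of all tested genes held 21.2% of the variance and had r = 0.54 with Olig1, 0.41 with Sox10, 0.51 with Nkx2-2, 0.40 with Myrf and 0.63 with Cspg4. With Olig2, Pdgfra and Sox8 it had r = 0.19, 0.18 and -0.11. The second component (11.1%) had r = -0.69 with Pdgfra and -0.30 to 0.13 with the others. The third component (9.2%) had r = 0.64 with Olig2 and -0.54 with Sox8, beside -0.51 with Cspg4, -0.44 with Pdgfra, 0.39 with Olig1 and -0.20 to 0.21 with the others. The part of these components in the correlations was not tested.

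**Figure D5:**
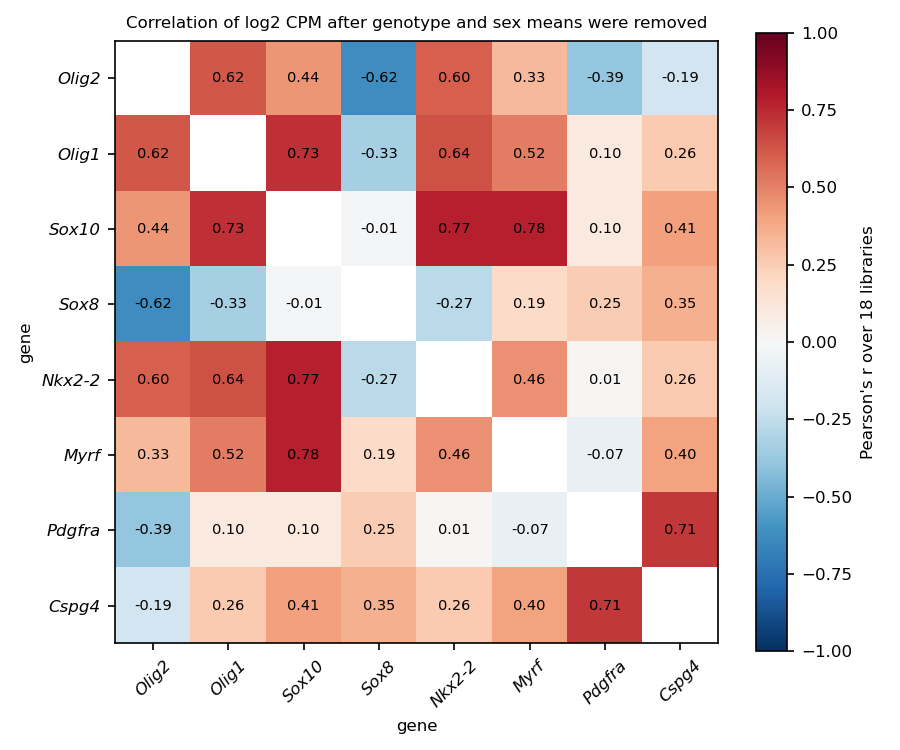
Pearson's r between the 8 genes over 18 libraries, from log2 CPM after genotype and sex means were removed. Sox10, Nkx2-2, Myrf and Olig1 form a block of positive values, and Olig2 and Sox8 have the lowest value (-0.62).

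Ranked over all 18716 other tested genes on the same scale, the genes most like Olig1 were Nf2 (r = 0.93), Map3k10 (0.93), Nudc (0.92), Poll (0.90) and Usf2 (0.90), over 18 libraries. Sox10 ranked 272 and Olig2 ranked 833 in that order. Those most like Olig2 included Gm16754 (r = 0.86), Dhh (0.85), Zfp174 (0.85) and Ppp1r10 (0.83), and Olig1 ranked 215. These values are the highest among many genes and are given as a description with no p.

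Other genes of the lineage and of its neighbours were read from lists of 249 genes, of which 240 were tested outside the segment. The shares over all genes given beside them include the 115 tested segment genes, so the 2 bases are unlike in the comparisons with WT. In Dp16 against WT, edgeR called 0 of 240, beside 0.748% of all 18717 genes. DESeq2 called 3 of the lists, beside 250 of 18717 genes. At an unadjusted edgeR p under 0.05 there were 32 of 240, beside 1655 of 18717. In Dp16_2xIFNRs against WT, edgeR called 5 of 240 (2.08%), 1 higher and 4 lower, beside 1.05% of all genes. DESeq2 called 10 there, beside 405 of 18717 genes. At an unadjusted edgeR p under 0.05 there were 44 of 240, beside 2158 of 18717. Between the duplication genotypes 0 of 240 were called by edgeR and by DESeq2, beside 0.0214% of all genes by edgeR, with 4 at an unadjusted p under 0.05, beside 410 of 18717. The counts against WT changed with the libraries and the fit. With the description number as a block, in fits chosen after seeing the data, edgeR called 0 in Dp16 and 1 in Dp16_2xIFNRs with a fixed block, and limma-voom called 1 and 8 with a random block. Over all genes these fits called 33 and 60 (fixed) and 144 and 271 (random). Without the 3 libraries numbered 930 the list counts were 0 and 3, beside 111 and 143 over all genes. Without WT sample 6 the count was 5 in Dp16 and 12 in Dp16_2xIFNRs, beside 133 and 270 over all genes. Without both WT sample 6 and Dp16 sample 3 it was 2 and 12, beside 110 and 270. In Dp16 it was 1 without WT sample 5 or without Dp16 sample 1, 2 or 6, beside 120 to 147 over all genes. In Dp16_2xIFNRs it was 2 without WT sample 1 or without Dp16_2xIFNRs sample 2 or 4, beside 121 to 151. It was 3 there without WT sample 2, 3 or 4 or without Dp16_2xIFNRs sample 5, beside 125 to 149.

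Among 35 mature myelin genes, 1 rose in Dp16_2xIFNRs and 0 fell. Mal, a proteolipid of compact myelin, was 199 ± 17.2 CPM in WT, 264 ± 45.9 in Dp16 and 293 ± 24.3 in Dp16_2xIFNRs (SD, n = 6). Its log2 difference from WT was 0.55 in Dp16_2xIFNRs (SE 0.0951, edgeR adjusted p = 0.00397) and 0.40 in Dp16 (adjusted p = 0.0625). Mobp, another myelin gene, had 0.43 (adjusted p = 0.0572) in Dp16_2xIFNRs. The median of the list was 0.01 in Dp16 and 0.08 in Dp16_2xIFNRs, beside medians of 0.00 over all genes, and 28 of 35 genes were above 0 in Dp16_2xIFNRs. Summed myelin markers were 1600 to 2037 RPKM in WT, 1752 to 2177 in Dp16 and 1873 to 2083 in Dp16_2xIFNRs, with overlap.

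Of 32 tested precursor genes and 27 genes of newly formed oligodendrocytes, 0 were called in either comparison with WT. The precursor list had a median log2 difference of -0.01 in Dp16 (14 of 32 above 0) and -0.07 in Dp16_2xIFNRs (6 of 32 above 0). The genes of smallest p were Cdo1 (0.23) and Scrg1 (-0.24) in Dp16, and Scrg1 (-0.29) and Cspg5 (-0.17) in Dp16_2xIFNRs. The newly formed list had medians of 0.02 in both. Its genes of smallest p were Enpp6, an early differentiation enzyme (-0.34), and Prom1 (0.21) in Dp16, and Bcas1 (0.22) and Nfasc (0.13) in Dp16_2xIFNRs. None of these passed.

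Among 33 tested other lineage regulators, the SoxC factor Sox4 fell in Dp16_2xIFNRs, from 28.6 ± 3.25 CPM in WT to 22.6 ± 1.49 (SD, n = 6; log2 -0.34, SE 0.0718, edgeR adjusted p = 0.0220). In Dp16 it was 24.1 ± 2.49 CPM (log2 -0.25, adjusted p = 0.179). The other 32 did not pass, and the list's median was -0.05 in Dp16 and -0.06 in Dp16_2xIFNRs. Nkx6-1 had -0.90 in Dp16 (SE 0.264, adjusted p = 0.179). Among 31 lineage signals and receptors, 2 fell in Dp16_2xIFNRs. Adgrg1, an adhesion receptor of precursors, was 87.8 ± 10.3 CPM in WT and 62.3 ± 6.81 in Dp16_2xIFNRs (log2 -0.49, SE 0.0865, edgeR adjusted p = 0.00456). Fgfr3, an FGF receptor that is also on the astrocyte list, was 138 ± 16.6 and 111 ± 10.9 CPM (log2 -0.30, SE 0.0725, adjusted p = 0.0464). In Dp16 the genes of smallest p were Ptch1 (-0.25) and Jag1 (-0.43), which did not pass.

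Of the lists for other cell types, the Schwann list gave the last call. The cadherin gene Cdh19 was 10.8 ± 0.689 CPM in WT, 9.04 ± 1.38 in Dp16 and 8.03 ± 0.828 in Dp16_2xIFNRs (log2 -0.42 against WT, SE 0.0915, edgeR adjusted p = 0.0251). The Schwann gene Pmp2 was at or near 0, whereas 5 or 6 of the 9 listed genes had counts in every library of a genotype, as given above. In Dp16, where no list gave a call, the medians were -0.22 for the 5 Schwann genes tested, -0.09 for microglia and -0.05 for pericyte genes. They were 0.13 for fibroblast genes, 0.24 for choroid plexus and ependymal genes, and -0.01 to 0.01 for astrocyte, neuron and endothelial genes. In Dp16_2xIFNRs the Schwann genes had a median of -0.13. Microglia genes there had a median of -0.12 with 1 of 14 above 0, and 0 were called. Fibroblast genes had a median of 0.17 with 11 of 13 above 0, and choroid plexus and ependymal genes 0.26 with 5 of 7 above 0. Pericyte, endothelial, astrocyte and neuron genes had medians between -0.03 and 0.02. Their part in the values of the 8 members was not tested.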

How the data were processed

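Gene counts and RPKM values for 18 libraries of mouse cortex were deposited by the authors. The deposited counts are whole, unnormalised reads per gene; the deposited RPKM values divide them by library total and gene length, which was checked for 31735 of 31735 genes within a tolerance of 1e-06. The submitters' processing notes name HISAT2 2.1.0, HTSeq 0.6.1, SAMtools 1.5, FastQC 0.11.5 and bcl2fastq, with build GRCm38. Settings, including the use of strand in counting, were not given in the sources used. Per the labels' protocols the libraries are poly-A selected and strand-specific.

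Counts were fitted with edgeR 4.0.16 in R 4.3.3: filterByExpr with a minimum count of 10, TMM size factors, genotype and sex as terms, all 18 libraries in 1 fit, robust quasi-likelihood F tests, and Benjamini-Hochberg adjustment over 18717 genes with a threshold of 0.05. Intervals are at 95%. Positions come from GENCODE M21. Correlations used log2 CPM with a prior count of 2 after removal of genotype and sex means, with two-sided permutation tests of 100000 resamples; the same means were removed again from each permuted set. The fit and the correlation test were tested on simulated data. Alternatives included DESeq2 1.42.0, limma 3.58.1 (voom, and log2 of RPKM plus 0.1 or 1), other size factors, filters and terms, subsets by sex and number series, and leaving out each library. The number in the sample descriptions was added as a block, and its libraries numbered 930 left out, after the data were seen.

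The members and lists were chosen with earlier results of these data known. Genes named are the 8 members, their families, up to 3 called genes per list and comparison (otherwise up to 2 of smallest p), the 5 most like Olig1 and Olig2, and the nearest segment genes; 2 genes under this rule or on the marker lists are not reported here.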

Additional observations from a re-analysis of the deposited data

Results flagged for a closer look

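In 24 groups (8 genes in 3 genotypes) the highest and lowest library were compared with the rest by Dixon's ratio, and 2 stood apart; chance flags about 1 in 20 groups. Nkx2-2 was highest in Dp16 sample 1, at 6.94 CPM, apart from the other 5 Dp16 libraries at 4.48 to 5.30 CPM. Pdgfra was lowest in Dp16_2xIFNRs sample 6, at 48.1 CPM, apart from the others at 61.9 to 68.3 CPM.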

How the results depend on the processing

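No alternative run called a member at 2 copies against WT, any of the 8 members between the duplication genotypes, or any member by sex or its interactions. The description number series (9xx, 0xx, 4xx) is a label of unknown meaning. Depth limits Nkx2-2 most, at 214 to 473 counts per library. Olig1 and Olig2 stayed above WT in every alternative. Olig1 in Dp16_2xIFNRs against WT moved from 0.33 to 0.49 in males only, and to 0.19 in females only. With the replicate block, Olig1 had 0.36 in Dp16 and 0.33 in Dp16_2xIFNRs and Olig2 0.34 and 0.37, called members stayed at 0, and the block changed no call on a member. Of 18 pairs of same-numbered samples, 11 had a correlation of deviations over 0.1 (range -0.14 to 0.32) and 6 correlated best with their own number, so the numbers were not taken as pairs. Of 7 pairs that share a description number, 5 were over 0.1 (range -0.10 to 0.32, median 0.17). Of 47 other pairs of the same sex from different genotypes, 6 were over 0.1 (median -0.10). The meaning of the number is unstated, and the main fit holds no term for it. Its tests therefore treat libraries that share a description number as independent, though their deviations were more alike. Alternatives added after seeing the data used this number. As a fixed replicate block, without a sex term since each number holds 1 sex, it gave Olig1 0.426 in Dp16 and 0.399 in Dp16_2xIFNRs and Olig2 0.269 and 0.365. Over all genes this fit called 33 in Dp16 and 60 in Dp16_2xIFNRs against WT, beside 140 and 196 in the main fit. As a random block in limma-voom the number gave 0.367, 0.346, 0.317 and 0.358. Over all genes that fit called 144 and 271, beside 136 and 199 in limma-voom without the block. Both called 0 members, as did the fit without the 3 libraries numbered 930. List genes called in Dp16_2xIFNRs became 1, 8 and 3 in these 3 fits, and 1 in Dp16 with the random block. List genes called (0 in Dp16, 5 in Dp16_2xIFNRs) became 1 and 8 with the replicate block, 3 and 10 with DESeq2 and 2 and 12 without both WT sample 6 and Dp16 sample 3. Over all genes these fits called 168 and 304, 250 and 405, and 110 and 270. They were 1 and 1 in males only (51 and 41 over all genes), and 2 in Dp16_2xIFNRs in females only (74 over all genes). In Dp16 they were 1 with genotype alone, 1 with the number series added, 1 in the 9xx series and 2 with the mean of myelin genes added. Over all genes these 4 fits called 142, 126, 69 and 150 in Dp16. Leaving out 1 library gave 0 to 5 in Dp16 and 2 to 12 in Dp16_2xIFNRs, beside 102 to 147 and 121 to 270 over all genes. Correlated pairs went from 4 to 7 with genotype alone removed and to 2 without both libraries, and to 3 to 6 without 1 library. The cause of these moves was not tested.

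Signs turned for members near 0 (log2). In males only: Sox10 0.0810 (Dp16) and 0.241 (Dp16_2xIFNRs), Cspg4 0.0413 (Dp16_2xIFNRs), and between the duplication genotypes Olig1 0.0189, Olig2 -0.0100, Sox8 0.0737 and Cspg4 0.0447. In females only: Myrf -0.0841 and -0.0468, Pdgfra -0.0286 (Dp16), and Sox10 -0.00129 between the duplication genotypes. In the 9xx series: Sox8 0.0262 and 0.0144, Pdgfra -0.0498 (Dp16), and between the duplication genotypes Olig2 -0.0879 and Nkx2-2 -0.0835. With the description number as a fixed block: Sox10 0.0863, Sox8 0.114 and Cspg4 0.0159 (Dp16), Sox10 0.0371 (Dp16_2xIFNRs), and between the duplication genotypes Sox10 -0.0492 and Myrf -0.0580. Without the libraries numbered 930, Myrf was -0.0471 (Dp16). Cspg4 in Dp16 was 0.0128 with age added and 0.0380 with the number series added. Without both libraries: Pdgfra -0.0868 (Dp16), and between the duplication genotypes Sox8 0.00787 and Myrf -0.00593. With the myelin mean added, Sox10 was -0.0208 and Myrf -0.0352 between the duplication genotypes. Leaving out 1 library turned signs too. In Dp16, Myrf ran from -0.0364 to 0.0837, Pdgfra from -0.0626 to 0.0651 and Cspg4 from -0.113 to 0.0482. In Dp16_2xIFNRs, Sox10 ran from -0.0790 to 0.0367 and Cspg4 from -0.124 to 0.0333. Between the duplication genotypes, Olig1 ran from -0.0800 to 0.0296, Olig2 from -0.0238 to 0.121, Sox8 from -0.0415 to 0.0526, Myrf from -0.00591 to 0.118 and Cspg4 from -0.0725 to 0.0553.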
